A study of Mus musculus with 179 samples.

Results

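A set of 10 genes that mark astrocytes, the star-shaped glia that wrap synapses and blood vessels, were followed through every group of a mouse brain stress study. They were chosen by name and not by any measured value, though earlier results of these data were known: Aqp4, Slc1a2, Slc1a3, Gfap, Aldh1l1, Gja1, Gjb6, Sox9, S100b and Glul. They were matched by symbol in the male ventral tegmental area table and by Ensembl identifier in the others. All 10 were found in the table of 37810 genes for the male ventral tegmental area and in the table of 32421 genes for the prefrontal cortex, hippocampus and female regions. In the table of 16239 genes for the male nucleus accumbens 6 were found, and Slc1a3, Gfap, Sox9 and S100b were not analysed there.

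The study sequenced RNA from tissue punches of adult C57BL/6 mice (C57Bl6/j in the labels of most groups) in 163 libraries, collected 24 h after behavioural testing. Punches covered the midbrain's ventral tegmental area (VTA), where reward dopamine neurons sit, the nucleus accumbens (NAc), a striatal target of those neurons, and prefrontal cortex (PFC), with hippocampus (HIP) added for males. Mice were raised under standard conditions or met early life stress (ELS), and as adults were left undisturbed or met a second stress, chronic social defeat in males and sub-threshold variable stress (STVS) in females. Males and females came from separate cohorts. Tissue of 3 mice was pooled in each library of male VTA and of male NAc, and the remaining libraries held 1 mouse.

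Each female region held 6 libraries of standard-reared controls, 5 of standard-reared STVS mice, 5 of ELS controls and 6 of ELS mice given STVS. Male PFC and male HIP held 6 libraries of each of the 4 corresponding groups. In these groups ELS ran from postnatal day 10 to day 20. In male VTA there were 4 libraries of standard controls and 4 of ELS controls, with 6 of standard-reared and 6 of ELS defeated mice, and the ELS window is not given in the labels. Male NAc held 4 standard controls and 6 standard-reared defeated libraries, 4 controls and 6 defeated libraries with ELS on days 10 to 20 (the late window), and 4 controls and 5 defeated libraries with ELS on days 2 to 12 (the early window). Standard-reared mice without adult stress are called unstressed here.

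Astrocytes take up glutamate released at synapses through the transporters encoded by Slc1a2 (GLT-1) and Slc1a3 (GLAST), and the enzyme glutamine synthetase, encoded by Glul, turns it into glutamine that is handed back to neurons. They pass ions and small molecules to one another through gap junctions of connexin 43 (Gja1) and connexin 30 (Gjb6), and move water through aquaporin 4 (Aqp4), which is concentrated in the endfeet on blood vessels. Gfap encodes an intermediate filament that rises when astrocytes react to injury, Aldh1l1 a folate enzyme used as a general astrocyte marker, Sox9 a transcription factor of the astrocyte lineage, and S100b a calcium-binding protein that some oligodendrocytes also make. Glul is likewise made by some oligodendrocytes.

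Values are normalised reads, counts scaled by 1 factor per library, except in male VTA, where they are RPKM, reads scaled to gene length and library size. Recovered depth ran from 13601728 to 42746141 reads per library, and for the RPKM libraries it is unknown. Marker genes went with the regional labels, with a few libraries as exceptions. Slc6a3, the dopamine transporter, lay between 7649 and 50993 normalised reads in female VTA and at most at 192 in female NAc, Adora2a, a striatal receptor, was at least 5641 in female NAc, and Prox1, a dentate gyrus factor, ran from 515 through a median of 3526 to 5929 in male HIP against at most 568 in male PFC. Of 24 HIP libraries 1 (unstressed replicate 1) lay within the PFC range for Prox1, and 2 (unstressed replicate 4 and ELS defeated replicate 5) for C1ql2, another dentate gyrus gene. All 3 are among the doubted libraries described next. Further exceptions included male PFC standard-reared defeated replicate 4 (Slc6a3 at 3853), male HIP ELS control 6 (Adora2a at 3679) and male VTA standard-reared defeated replicate 6 (Slc17a7, a cortical glutamate carrier, at 62.0 RPKM). Slc17a7 also reached 12381 in female NAc standard-reared STVS replicate 2 (median of that region 570). In female VTA it reached 3419 in unstressed replicate 3 (median of that region 216). In all, 14 of 143 libraries were doubted because Xist, Ddx3y or Ttr lay past a set limit, 6 of them in HIP, where Ttr (the main choroid plexus transcript) passed 10000. Results were also computed without them.

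The 10 genes differed in direction between unstressed female VTA and PFC, and S100b, Gfap, Slc1a2 and Slc1a3 are taken as examples. The first pair was higher in VTA than in PFC and the second pair lower. Their RefSeq promoters (build GRCm38.p6, 250 bases before the annotated start, in the direction of the gene) are shown to set the sequences of the opposed pairs side by side. Of the 10 genes 8 had an entry, and Aqp4 and Sox9 did not. Capitals mark matches, on either strand, to motif letters of factors known in astrocyte biology: TTCNNNGAA (STAT), TTGGC (1 arm of the nuclear factor I site), ACAAT (SOX) and TATAAA (the TATA box). S100b lies on the plus strand at chr10:76253586-76253835, Gfap on the minus strand at chr11:102897201-102897450, Slc1a2 on the plus strand at chr2:102706188-102706437 and Slc1a3 on the minus strand at chr15:8710808-8711057.
S100b: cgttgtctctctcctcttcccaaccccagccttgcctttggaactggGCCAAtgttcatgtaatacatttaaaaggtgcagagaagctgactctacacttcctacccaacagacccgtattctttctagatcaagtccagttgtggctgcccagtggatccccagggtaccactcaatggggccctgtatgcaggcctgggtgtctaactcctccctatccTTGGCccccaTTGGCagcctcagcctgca
Gfap: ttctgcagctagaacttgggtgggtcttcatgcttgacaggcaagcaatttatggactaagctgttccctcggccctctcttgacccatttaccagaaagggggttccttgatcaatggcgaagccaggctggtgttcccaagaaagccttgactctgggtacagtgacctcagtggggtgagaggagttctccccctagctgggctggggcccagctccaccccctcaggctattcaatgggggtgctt
Slc1a2: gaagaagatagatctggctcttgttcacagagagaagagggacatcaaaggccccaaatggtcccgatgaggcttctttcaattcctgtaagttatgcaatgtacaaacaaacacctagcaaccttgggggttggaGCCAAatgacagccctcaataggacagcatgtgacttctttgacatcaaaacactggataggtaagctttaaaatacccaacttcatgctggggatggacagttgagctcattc
Slc1a3: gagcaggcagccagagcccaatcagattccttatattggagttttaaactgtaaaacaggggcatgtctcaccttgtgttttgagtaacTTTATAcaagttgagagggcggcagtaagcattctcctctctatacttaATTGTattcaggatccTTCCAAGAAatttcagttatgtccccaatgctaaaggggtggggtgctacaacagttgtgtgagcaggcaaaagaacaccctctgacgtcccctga

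The S100b window held 3 such arms of nuclear factor I, the last pair starting 29 and 19 bases before the start, and Slc1a2 held 1, at 114 bases. Slc1a3 held 1 STAT match at 96 bases, 1 SOX match at 112 and 1 TATA match at 161 on the other strand. Gfap held none of these letters in this window. Among the 32851 RefSeq promoter windows of the same length 41.5% held the nuclear factor I arm, 27.7% the SOX letters, 12.4% the TATA letters and 7.02% the STAT letters, so each is common and the matches are only a description. The full palindromic site of nuclear factor I, 2 opposed arms with 5 bases between, contains the single arm, and was in 0.0365% of windows and in none of the 8 member windows. The letters of different motifs did not overlap in the windows shown.

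Levels between genes can be compared only per length, which the male VTA table allows. Over its 20 libraries Glul was the most abundant transcript of the 10, at 465 ± 31.8 RPKM (SD, n = 20), followed by S100b at 241 ± 48.7, Slc1a2 at 109 ± 7.52 and Gja1 at 72.1 ± 5.45. Sox9 was the lowest at 5.00 ± 0.53 RPKM. Aqp4 (33.5 ± 5.24), Slc1a3 (30.7 ± 6.89), Gjb6 (30.2 ± 4.87), Gfap (23.6 ± 12.9) and Aldh1l1 (15.5 ± 0.90) lay between, and no neighbours in that stretch of the order were separated by their spread: Aqp4 exceeded Slc1a3 in 14 of 20 libraries, Slc1a3 exceeded Gjb6 in 9 of 20 and Gfap exceeded Aldh1l1 in 11 of 20. From Glul down to Aqp4, and from Aldh1l1 to Sox9, each gene exceeded the next in 20 of 20 libraries. Groups were pooled for this order.

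**Figure D1:**
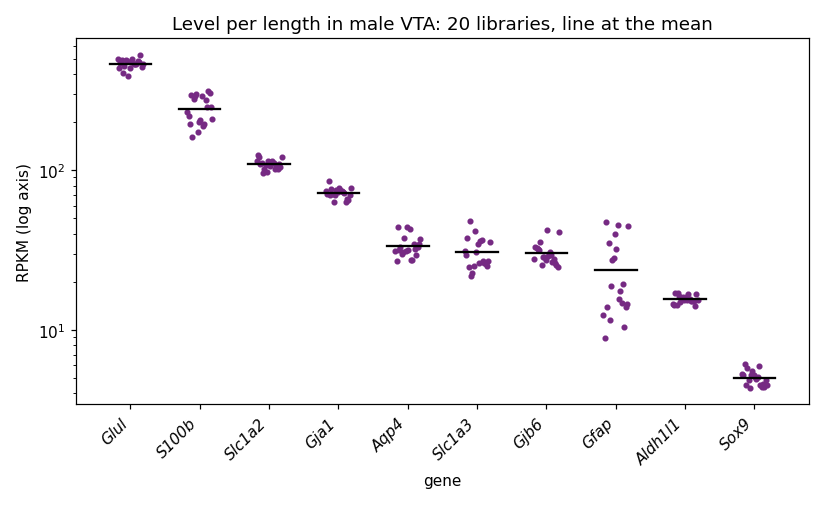
RPKM of each of the 10 genes in the 20 male VTA libraries (log axis, 1 point per library, line at the mean over all 4 groups). Glul at 465 and S100b at 241 lie apart at the top, neighbours from Aqp4 to Aldh1l1 overlap, and Gfap has the widest scatter.

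The unstressed regions differed in the make-up of this gene set and not in its sum alone. The summed normalised reads of the 10 genes had medians of 140511 in female VTA, 149840 in female NAc and 156996 in female PFC. These medians lie close together beside the ranges of their libraries (131093 to 152063, 140175 to 162120 and 148111 to 219228). The sum is not scaled to gene length, so the genes with most reads, Slc1a2 and Glul, weigh most in it. Slc1a2 averaged 51361.5 in VTA, 84964.1 in NAc and 96506.5 in PFC, and Glul 49383.7, 34579.8 and 38686.9. Slc1a2 was thus lowest and Glul highest in VTA, and the similar sums do not show a similar level of the whole set. In bulk tissue, fewer cells of a type and less RNA per cell cannot be told apart. The labels do not say which regions came from the same mouse.

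In female VTA against female PFC all 10 genes passed limma's test (Benjamini-Hochberg adjusted p under 0.05 over 14000 genes), where 78.8% of all genes tested did, so the share itself says little and the sizes and directions carry the comparison. Of these, 7 were higher in VTA and 3 lower, with a median log2 difference of 0.46 against 0.01 over all genes tested. The groups did not overlap for 4 of the 10, a description only, as the share of all genes without overlap was not computed.

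S100b showed the greatest difference of the 10. Its 6 unstressed libraries ran from 7937 through a median of 10396 to 13238 normalised reads in VTA, and from 1401 through 1659 to 2096 in PFC. Every VTA library lay above every PFC library, the log2 difference was 2.63 ± 0.12 (SE), 6.17-fold, with an adjusted p of 3.3e-13 (limma). Female NAc was near PFC, from 1438 through 1743 to 2108, so that VTA exceeded NAc 5.87-fold (log2 2.55 ± 0.12). Mature oligodendrocyte markers differed between these regions as well. All 10 on that list were higher in VTA than in PFC (median log2 difference 3.54), among them the myelin genes Mbp at 3.58, Mobp at 4.08 and Aspa, an acetylaspartate-degrading enzyme of oligodendrocytes, at 3.25. Between NAc and PFC all 10 of these markers were also higher in NAc (median log2 difference 1.84). There S100b differed by 0.07 ± 0.12 (limma adjusted p = 0.60) and Glul by -0.15 ± 0.08 (adjusted p = 0.13). The summed level of the markers was 501773 to 681611 in VTA against 41040 to 54688 in PFC, and their part in the S100b or Glul values was not tested.

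Aqp4 and Gfap were also higher in VTA. Aqp4 ran from 5409 through 7010 to 8692 in VTA, from 2071 through 2427 to 2692 in NAc and from 2112 through 2493 to 3736 in PFC. VTA lay above the other regions with no overlap, at 2.65-fold PFC (log2 1.40 ± 0.13, limma adjusted p = 1.3e-08) and 2.90-fold NAc. Gfap ran from 1305 through 3539 to 6052 in VTA, from 697 through 916 to 1734 in NAc and from 1146 through 1260 to 2578 in PFC. Of its 6 VTA libraries, 5 lay above every PFC library and 1 among them, for a log2 difference of 1.24 ± 0.33 from PFC (limma adjusted p = 0.0023) and 1.77 ± 0.33 from NAc.

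The connexins did not move as one. Gja1, the connexin 43 gene, was highest in VTA (6417 through 6970 to 7622), lower in NAc (5815 through 6185 to 6835) and lowest in PFC (4503 through 4925 to 7221). VTA exceeded PFC by log2 0.43 ± 0.09 (limma adjusted p = 1.4e-04) and NAc exceeded PFC by 0.28 ± 0.09 (adjusted p = 0.0077), whereas VTA against NAc, at 0.16 ± 0.09, did not pass (adjusted p = 0.10). Gjb6, the connexin 30 gene, instead had its low point in NAc, from 475 through 588 to 766, against 1070 through 1228 to 1838 in PFC and 1740 through 1827 to 1865 in VTA. No NAc library reached the level of any library of the other regions, and Gjb6 in NAc was 2.14-fold lower than in PFC (log2 -1.10 ± 0.11, limma adjusted p = 5.5e-08) and 3.01-fold lower than in VTA. The male NAc table, normalised separately, gave Gjb6 values of 746, 741, 665 and 644 in its 4 unstressed libraries.

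The glutamate transporters ran the other way. Slc1a3 lay between 5616 and 8480 in VTA (median 6623), between 15756 and 18998 in NAc (median 17285) and between 14032 and 21096 in PFC (median 15323). VTA lay below the other regions with no overlap, 2.31-fold under PFC (log2 -1.21 ± 0.10, limma adjusted p = 1.1e-09) and 2.51-fold under NAc. Slc1a2 was likewise lowest in VTA, by a smaller factor, with 49876 through 50870 to 53204 in VTA, 77642 through 83333 to 93529 in NAc and 85451 through 92508 to 125278 in PFC. It was 1.86-fold lower in VTA than in PFC (log2 -0.90 ± 0.07, limma adjusted p = 7.0e-10) and 1.65-fold lower than in NAc, again with no overlap.

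Glul, which acts on the glutamate those transporters bring in, was higher in VTA, at 45717 through 49433 to 53138 against 33660 through 35928 to 52203 in PFC (log2 0.37 ± 0.08, limma adjusted p = 5.2e-04) and 31757 through 34352 to 37465 in NAc (log2 0.51 ± 0.08). VTA and NAc did not overlap, while the highest PFC library reached the VTA range. Aldh1l1 differed in the same direction, with 1703 through 2011 to 2130 in VTA against 1164 through 1312 to 1817 in PFC (log2 0.56 ± 0.09, limma adjusted p = 1.3e-05). Sox9 was slightly lower in VTA, from 768 through 863 to 937, than in PFC, from 927 through 1012 to 1365 (log2 -0.29 ± 0.07, limma adjusted p = 0.0017) or in NAc, from 946 through 1004 to 1084 (log2 -0.25 ± 0.07).

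**Figure D2:**
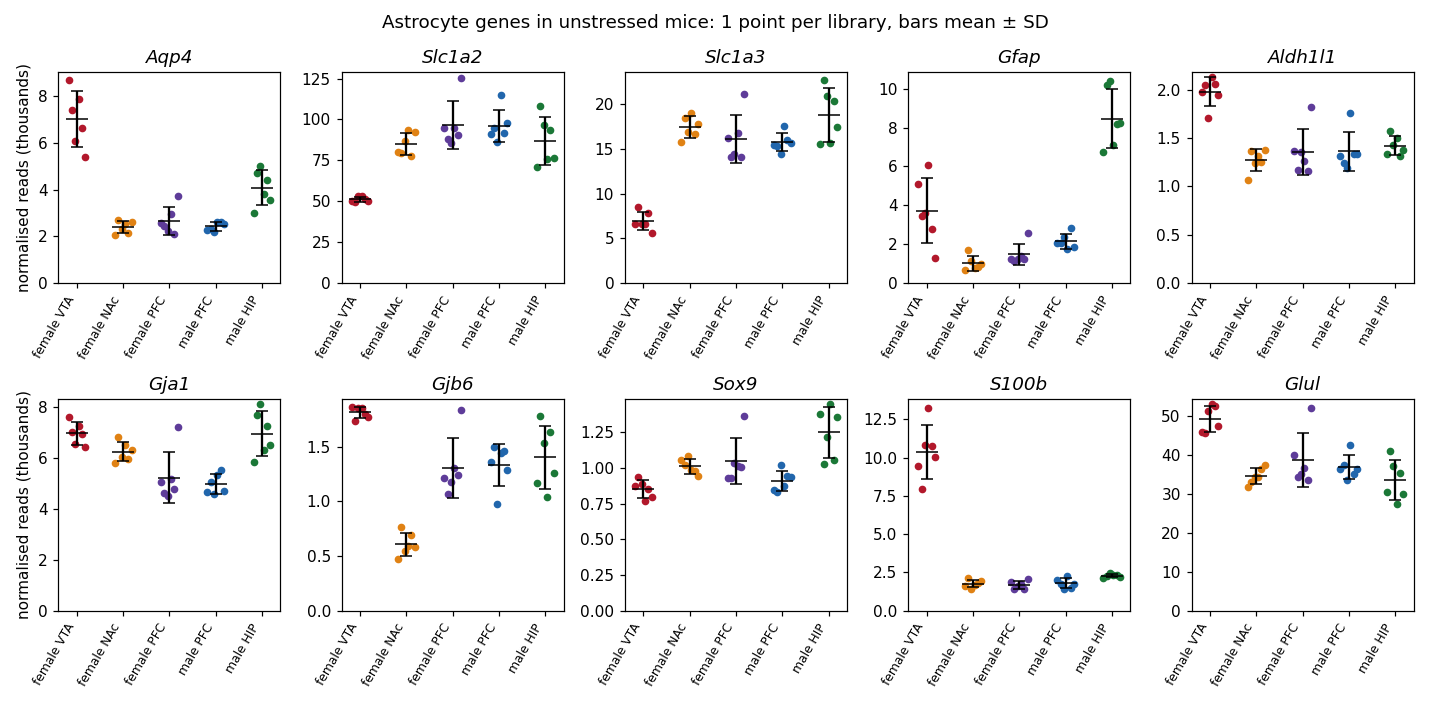
Normalised reads (axis in units of 1000 reads) of the 10 genes in the unstressed groups of the 5 regions that share a table (1 point per library, 6 per group; bars show mean ± SD, axes start at 0). S100b and Aqp4 are highest in female VTA, Slc1a2 and Slc1a3 lowest there, Gjb6 lowest in female NAc and Gfap highest in male HIP.

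Between female VTA and female NAc 9 of the 10 passed, all but Gja1, where 81.1% of genes tested did, with 6 higher in VTA and 3 lower and a median log2 difference of 0.58 against 0.03 over all genes. Groups did not overlap for 8 of the 10, and here too the share of all genes without overlap was not computed. Between female NAc and female PFC only 3 passed, Gjb6, Gja1 and Slc1a2, although 70.5% of genes tested did, and the median was -0.11 against 0.01 over all genes. The Slc1a2 difference, log2 -0.18 ± 0.07 (limma adjusted p = 0.042), was not stable: it did not pass with edgeR (adjusted p = 0.098) or without any 1 of 6 libraries (NAc 1, 2 or 5, PFC 1, 4 or 6), and it turned to 0.11 under quantile normalisation. The Gja1 difference did not pass without the NAc libraries whose adult label repeats the sex (0.20, adjusted p = 0.11). With all groups of each region in the fit, and so more libraries, 9 of the 10 passed between NAc and PFC. The share of all genes passing in that fit is not given here, so the count is only a description.

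Female PFC replicate 6 of the unstressed group was the highest of its 6 libraries for 7 of the 10 genes by a margin that set it apart, Slc1a2 and Gfap among them. Without it, VTA against NAc for Gja1 kept its 0.16 and passed (adjusted p = 0.0081), and NAc against PFC for Slc1a3 passed at 0.21 (adjusted p = 0.037).

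Male HIP against male PFC gave another pattern. In HIP 6 of the 10 were higher and none lower, where 46.8% of genes tested passed, with a median log2 difference of 0.31 against 0.01 over all genes. Gfap ran from 6731 through 8190 to 10374 in HIP and from 1767 through 2082 to 2825 in PFC, with no overlap, a 3.90-fold difference (log2 1.96 ± 0.13, limma adjusted p = 1.1e-07). Aqp4 ran from 3008 through 4097 to 5023 in HIP and from 2207 through 2413 to 2636 in PFC, also with no overlap (log2 0.73 ± 0.11). Gja1 (0.48 ± 0.08) and Sox9 (0.45 ± 0.09) did not overlap either, while S100b (0.38 ± 0.10) and Slc1a3 (0.24 ± 0.09, adjusted p = 0.045) did. Aldh1l1, Gjb6, Glul and Slc1a2 had log2 differences from -0.16 to 0.07 and did not pass.

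Among the 6 unstressed HIP libraries, replicates 1, 4 and 6 carried choroid plexus RNA, with Ttr between 171510 and 250318 against at most 42.5 in the other 3. These 3 libraries lay below the other 3 for 6 genes: Aqp4, Slc1a2, Slc1a3, Gja1, Gjb6 and Glul. Slc1a2 was 70938 to 76634 in them and 93544 to 107916 in the others. Sox9 went the other way, at 1360 to 1449 in them against 1028 to 1219. The share of all genes separated in this way between these libraries was not computed, so the count is only a description. The part of choroid plexus RNA in these values was not tested. Without the doubted libraries Sox9 in HIP against PFC fell short of the threshold (log2 0.24, limma adjusted p = 0.052), Slc1a3 reached 0.47 (adjusted p = 2.7e-04), Slc1a2 turned from -0.16 to 0.10 and Glul from -0.15 to 0.09, neither of which passed.
With all libraries, the Slc1a3 call was lost without a filter (adjusted p = 0.058) and without any 1 of 9 libraries (HIP 2, 3, 5 or 6, PFC 1, 2, 3, 5 or 6), at adjusted p-values from 0.050 to 0.091. Aldh1l1 passed without PFC replicate 4 (0.15, adjusted p = 0.050). The Gjb6 difference of 0.06 turned to -0.02 without HIP replicate 2 and to -0.03 without PFC replicate 3.

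Male and female unstressed PFC differed in none of the 10 by limma's adjusted p, where 0.114% of genes tested passed. Gfap ran from 1767 through 2082 to 2825 in males and from 1146 through 1260 to 2578 in females, a log2 difference of 0.59 ± 0.19 with an unadjusted p of 0.0096 (limma; adjusted p = 0.49), and 0.77 (adjusted p = 0.0087) without female replicate 6. Sox9 differed by -0.19 ± 0.08 (unadjusted p = 0.032; limma adjusted p = 0.67). Both passed with all groups in the fit (Gfap 0.38, Sox9 -0.20), and the edgeR fit of the unstressed groups called none. Sex and cohort cannot be told apart.

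**Figure D3:**
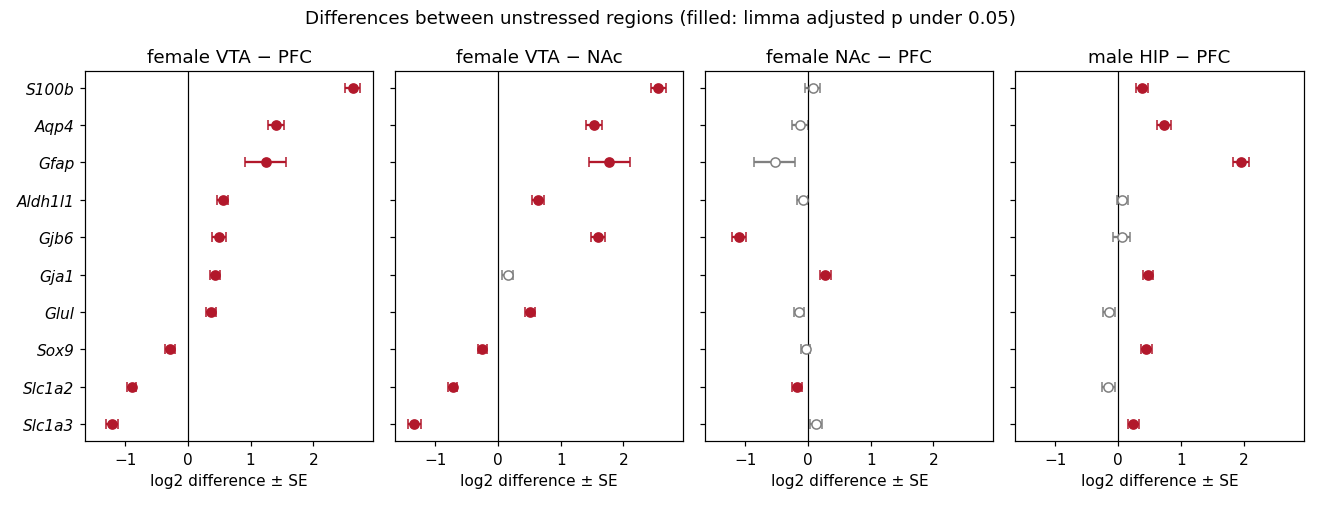
Log2 differences between unstressed regions (point with SE, limma; filled where the adjusted p is under 0.05) for the 10 genes, ordered by female VTA against PFC. In VTA against PFC the genes spread from -1.21 for Slc1a3 to 2.63 for S100b, and in male HIP against PFC Gfap stands out at 1.96.

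Other astrocyte genes behaved in part like these. Of 28 further markers, 25 were higher and 1 lower in female VTA than in PFC (median log2 difference 0.95), led by smallest p by Atp1b2, a sodium pump subunit, at 1.57, Slc4a4, a bicarbonate carrier, at 1.58 and Slc6a11, the GABA transporter GAT-3, at 2.43. Chrdl1, a secreted protein that acts on synapse maturation, was the 1 lower gene, at -4.57. In male HIP against PFC 22 were higher and 1 lower (median 0.42), again with Chrdl1 lower, at -2.63. Between female NAc and PFC 12 were higher and 6 lower (median 0.15), with Slc4a4 at 1.07 and Chrdl1 at -2.09. Of 22 genes linked to reactive astrocytes 17 were tested in the female regions, and 11 were higher and 2 lower in VTA than in PFC (median 0.52). In male HIP 9 of 18 tested were higher and 1 lower, Serpina3n, a protease inhibitor, at 1.38 among the higher. Large shares of all genes passed in the same comparisons, as given above, so these counts are only a description.

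Markers of other cells differed between the same regions. In female VTA against PFC 7 of 8 endothelial markers were higher (median 0.41) and none lower, 7 of 8 microglia markers were lower (median -0.58), and neuron markers were mixed, with 3 higher and 4 lower of 10. All 6 oligodendrocyte precursor markers (median 1.01) and 3 of the 4 choroid plexus markers tested were also higher. In male HIP against PFC no endothelial marker and no mature oligodendrocyte marker passed (medians -0.02 and 0.16), 6 of 8 microglia markers and 7 of 10 neuron markers were lower, and 4 of 5 ependymal markers were higher. There 5 of 6 oligodendrocyte precursor markers (median 0.34) and 3 of 8 choroid plexus markers were higher too. Beside the large shares of all genes that passed, these counts too are only a description. The part of these differences in the values of the 10 genes was not tested.

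The next question was whether ELS, adult stress or their combination changed the 10 genes in any region. Within each region and sex the comparisons were ELS alone, adult stress alone, adult stress after ELS, ELS among stressed mice, both against neither, and the interaction, and in male NAc each ELS window and the windows against each other, 49 comparisons in all. Comparisons of 1 region share groups and are not independent. No gene of the 10 passed in any of the 438 tests (limma, lowest adjusted p = 0.24), and 0% of all genes tested passed in each comparison. At an unadjusted p under 0.05 there were 35 such tests, 7.99% of them, against 6.15% over all genes tested, in 19 of the 49 comparisons. Slc1a2 accounted for 7 of the 35, Aldh1l1 for 6, Aqp4 for 5, Gja1 and Sox9 for 4 each, and Gfap and Glul for 1 each. The edgeR fits called none of the 10 in the tables with recovered reads.

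**Figure D4:**
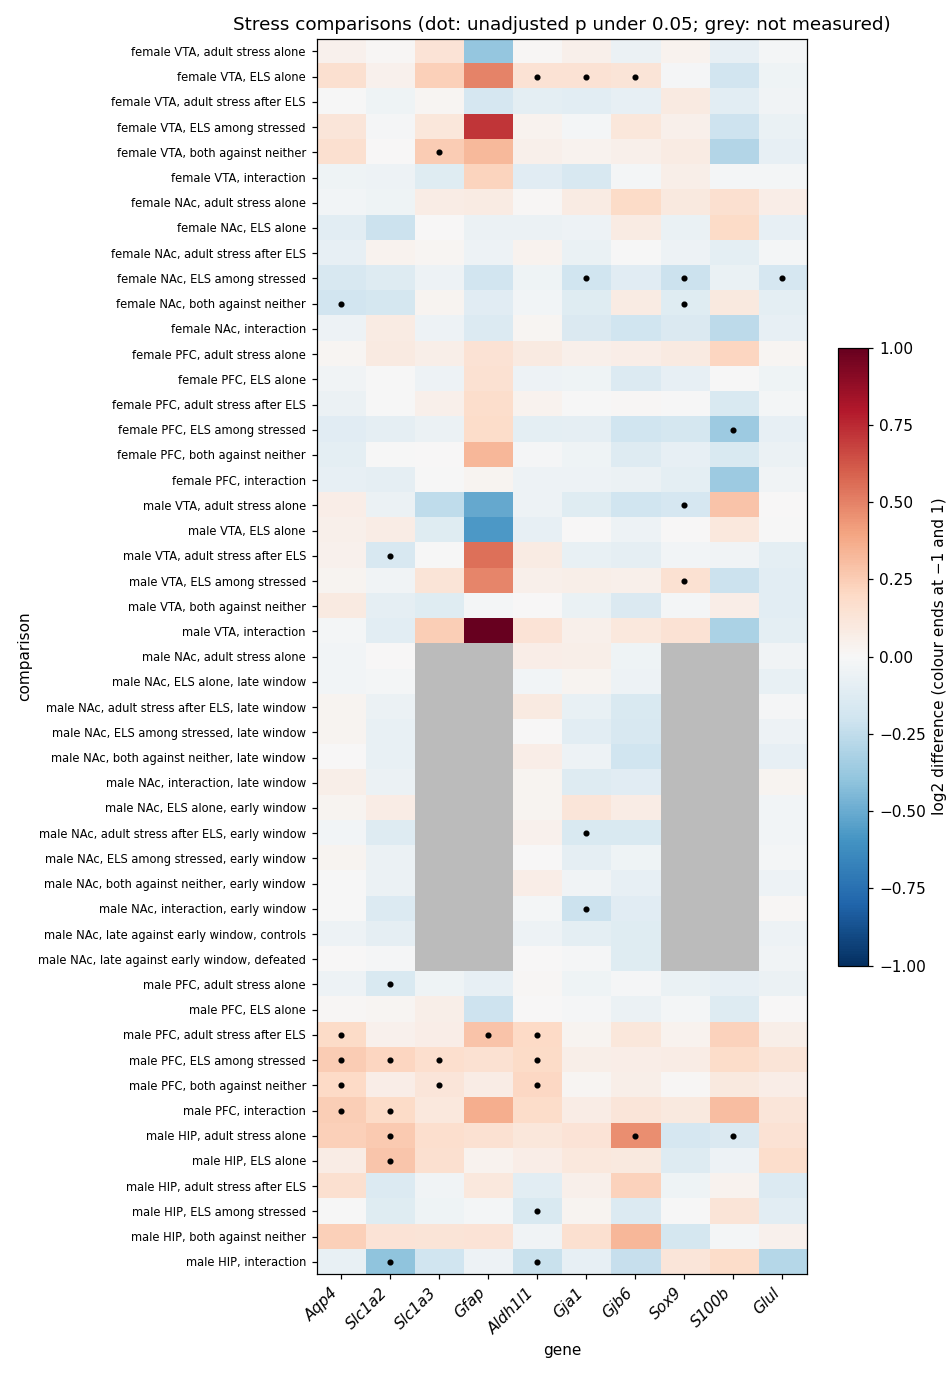
Log2 differences of the 10 genes (columns) in the 49 stress comparisons (rows); red is higher and blue lower in the first-named condition, colours end at -1 and 1, dots mark an unadjusted limma p under 0.05 and grey marks genes not in the male NAc table. The 35 dots are scattered, with the densest stretch in male PFC, and the deepest colours belong to Gfap in VTA.

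Male PFC held the most such tests. Among defeated males, 4 of the 10 had an unadjusted p under 0.05 between ELS and standard rearing, where 8.44% of all genes did, and all 10 differences were positive (median 0.16 against -9.0e-04 over all genes). A uniform sign was not particular to this comparison. In male PFC all 10 were also positive for defeat after ELS, both stresses against neither and the interaction. The same held for STVS alone in female PFC, and none of the 10 was positive for ELS among STVS mice in female NAc. The share of all genes that were positive is not given here. Aqp4 ran from 2278 through 2947 to 3134 in ELS defeated mice and from 2082 through 2309 to 2540 in standard-reared defeated mice. Of the 6 ELS libraries, 4 lay above every other (log2 0.26 ± 0.08, unadjusted p = 0.0023, limma adjusted p = 0.46). Slc1a2 ran from 90073 through 97397 to 120563 against 78057 through 87185 to 92197, with overlap (log2 0.22 ± 0.06, limma adjusted p = 0.46). Slc1a3 differed by 0.17 ± 0.06 and Aldh1l1 by 0.19 ± 0.09. Leaving out each library gave 3 to 5 genes, and 5 without the doubted libraries. The shares of all genes in those fits are not given here.
Aqp4 in the other male PFC groups ran from 2207 through 2413 to 2636 in unstressed mice and from 2040 through 2509 to 2705 in ELS controls, so the ELS defeated group held its highest values. In the same ELS comparison 4 of 8 endothelial and 5 of 8 microglia markers were also higher at an unadjusted p under 0.05, with medians of 0.17 each, Abcb1a, a drug efflux pump of brain vessels, at 0.27 and Csf1r, the microglial growth factor receptor, at 0.23, and 10 of the 28 other astrocyte markers were (median 0.13). No mature oligodendrocyte marker was at an unadjusted p under 0.05 (median -0.44). Their part in the values of the 10 genes was not tested.

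After ELS, defeat against no defeat in male PFC gave 3 of the 10 at an unadjusted p under 0.05, where 16.7% of all genes were: Aqp4 at 0.19 ± 0.08, Aldh1l1 at 0.20 ± 0.09 and Gfap at 0.28 ± 0.13 (limma adjusted p = 0.24 to 0.29). The count fell to 1 without ELS control 5 or without ELS defeated 1, 2, 5 or 6. Both stresses against neither gave 3, Aqp4, Aldh1l1 and Slc1a3, where 8.62% of all genes were, and 1 without ELS defeated 1 or 6 or unstressed 2 or 3. For defeat after ELS and for both stresses against neither, 7 of 28 other astrocyte markers were higher at an unadjusted p under 0.05 (medians 0.13 and 0.11). None was lower. Of 17 reactive astrocyte genes tested, 6 were higher and 1 lower for defeat after ELS (median 0.16). For both stresses against neither 1 was higher and 1 lower (median 0.09). Other cell types moved in the same comparisons. At an unadjusted p under 0.05, both stresses against neither had 7 of 10 mature oligodendrocyte markers lower (median -0.62), 5 of 8 microglia markers higher (median 0.15) and 3 of 8 endothelial markers higher (median 0.15), and defeat after ELS had 2 of 8 endothelial and 2 of 8 microglia markers higher (medians 0.16 and 0.05). Their part in the values of the 10 genes was not tested. Defeat alone gave 1, Slc1a2 at -0.15 ± 0.06, where 3.35% of all genes were. The interaction gave Aqp4 at 0.24 ± 0.11 and Slc1a2 at 0.19 ± 0.09 (limma adjusted p = 0.82 for each), where 5.94% of all genes were. Leaving out each library gave 0 to 1 genes for defeat alone and 0 to 3 for the interaction.

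In male HIP, defeat alone gave 3 of the 10 at an unadjusted p under 0.05, where 14.4% of all genes were. Slc1a2 ran from 94380 through 102647 to 108899 in defeated mice and from 70938 through 85089 to 107916 in unstressed mice (log2 0.26 ± 0.10, limma adjusted p = 0.30). Gjb6 ran from 1524 through 1999 to 2359 against 1041 through 1394 to 1778 (0.46 ± 0.22), and S100b from 1949 through 2045 to 2236 against 2115 through 2310 to 2449 (-0.15 ± 0.07). The groups overlapped for each of these genes. The low unstressed Slc1a2 and Gjb6 libraries were the 3 with choroid plexus RNA, whose markers had 6 of 8 lower after defeat at an unadjusted p under 0.05 (median log2 difference -3.97). Their summed level was 443 to 281456 in unstressed and 336 to 836 in defeated libraries. Unstressed replicates 1 and 4 also had a dentate gyrus marker within the PFC range. The parts of choroid plexus RNA and of punch position in these differences were not tested. Without the doubted libraries the Slc1a2 difference was 0.05 and that of Gjb6 0.21, and 1 of the 10 was left at an unadjusted p under 0.05. It was also 1 without unstressed 4 or defeated 3 or 6, and under quantile normalisation. Of 6 oligodendrocyte precursor markers 4 were also lower at an unadjusted p under 0.05 (median -0.24), and their part was not tested. Of 18 reactive astrocyte genes tested, 4 were higher for defeat alone at that threshold (median 0.23). For defeat after ELS 10 of the 18 were higher (median 0.53). None was lower in either comparison, and the share of all genes for defeat after ELS is not given here.
Slc1a2 also stood at 0.28 ± 0.10 for ELS alone, where 6.46% of all genes were at an unadjusted p under 0.05, and at -0.40 ± 0.14 in the interaction (11.8% of all genes), and these were 0.09 and -0.09 without the doubted libraries. Choroid plexus markers moved there too, with 2 of 8 lower for ELS alone and 7 of 8 higher in the interaction at an unadjusted p under 0.05. Their part was not tested. Aldh1l1 stood at -0.15 ± 0.07 for ELS among defeated mice (2.89%) and at -0.22 ± 0.10 in the interaction. The interaction count of 2 became 0 without the doubted libraries and 1 without ELS control 2, ELS defeated 2, 4 or 5, unstressed 6 or defeated 2.

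In female VTA, ELS alone gave 3 of the 10 at an unadjusted p under 0.05, where 4.22% of all genes were, all positive. Aldh1l1 was 2060, 2123, 2296, 2287 and 2164 in the 5 ELS control libraries against 1703 through 2011 to 2130 in unstressed mice (log2 0.15 ± 0.06, limma adjusted p = 0.87). Gja1 was 7699, 7192, 7055, 8333 and 8155 against 6417 through 6970 to 7622 (0.14 ± 0.07), and Gjb6 was 1879, 1818, 2215, 2142 and 1896 against 1740 through 1827 to 1865 (0.13 ± 0.06). The groups overlapped for each gene, and the count fell to 1 without ELS control 4 or unstressed 6. Both stresses against neither gave Slc1a3, at 0.25 ± 0.11 (11.6% of all genes).

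In female NAc, ELS among STVS mice gave 3 of the 10 at an unadjusted p under 0.05, all lower, where 13.3% of all genes were. Sox9 was 1089, 1066, 1107, 1088 and 1051 in the 5 standard-reared STVS libraries and 842 through 932 to 1057 in the ELS STVS libraries (log2 -0.21 ± 0.06, unadjusted p = 9.2e-04, limma adjusted p = 0.29), and the groups met only at their edges. Gja1 was 6325, 6225, 7069, 7208 and 6211 against 5379 through 5745 to 6147, with no overlap (-0.20 ± 0.06), and Glul stood at -0.17 ± 0.08. None of the 10 was left at an unadjusted p under 0.05 without the libraries whose adult label repeats the sex. Both stresses against neither gave Aqp4 at -0.19 ± 0.09 and Sox9 at -0.12 ± 0.05 (3.24% of all genes), and Aqp4 turned to 0.07 without those libraries.

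Female PFC gave 1 such test, S100b for ELS among STVS mice at -0.37 ± 0.17 (10.6% of all genes). Its values were 1774, 1824, 2109, 1456 and 2637 in standard-reared STVS mice and 1258 through 1475 to 1993 in ELS STVS mice, with overlap. In the same comparison 3 of 10 mature oligodendrocyte markers were higher (median 0.51) and 3 of 10 neuron markers lower (median -0.08) at an unadjusted p under 0.05, and their part was not tested.

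In male VTA, Sox9 stood at -0.17 ± 0.07 for defeat alone (6.56% of all genes) and 0.15 ± 0.06 for ELS among defeated mice (5.77%). Its RPKM ran from 4.35 through 4.48 to 4.88 in standard-reared defeated mice, all under the 4 unstressed libraries, the lowest of which was 4.91. The library with high Slc17a7, standard-reared defeated replicate 6, did not carry the Sox9 value (-0.17 without it), but 3 of the 10 were at an unadjusted p under 0.05 without it. The share of all genes in that fit is not given here. Slc1a2 stood at -0.16 ± 0.05 for defeat after ELS (4.57%), with RPKM of 114, 124, 120 and 110 in ELS controls and 96.1 through 105 to 114 in ELS defeated mice. In male NAc, Gja1 stood at -0.16 ± 0.06 for defeat after early-window ELS (7.71%) and at -0.21 ± 0.09 in the interaction of that window (6.03%), from 5335, 6577, 6499 and 5719 in early-window controls and 6048, 5390, 5115, 5425 and 5042 in early-window defeated mice, with overlap. For defeat after early-window ELS 3 of 6 endothelial markers (median -0.14) and 2 of 4 oligodendrocyte precursor markers (median -0.12) were also lower at an unadjusted p under 0.05, and their part was not tested. No gene of the 6 had an unadjusted p under 0.05 for the late window, or for 1 window against the other.

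Gfap varied most among libraries of 1 group, which limits what these groups can show for it. Its coefficient of variation within a group had a median of 26.1% over 24 groups and reached 87.1%, while Slc1a2, the least variable, had 6.25% over 30 groups and at most 16.8%. In male VTA the 4 unstressed libraries were at 32.1, 45.6, 15.5 and 17.5 RPKM and the 4 ELS controls at 12.3, 8.93, 47.6 and 13.9. Standard-reared defeated libraries ran from 10.4 through 14.6 to 44.7 and ELS defeated ones from 11.5 through 27.6 to 39.9. The male VTA interaction for Gfap, the largest log2 difference of any of the 10 in the stress comparisons at 1.06 ± 0.64, had an unadjusted p of 0.11 (limma adjusted p = 0.82). Across the 22 female VTA libraries Gfap spanned 9.38-fold, from 928 to 8702 normalised reads, and in the 24 male HIP libraries 1.78-fold.

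**Figure D5:**
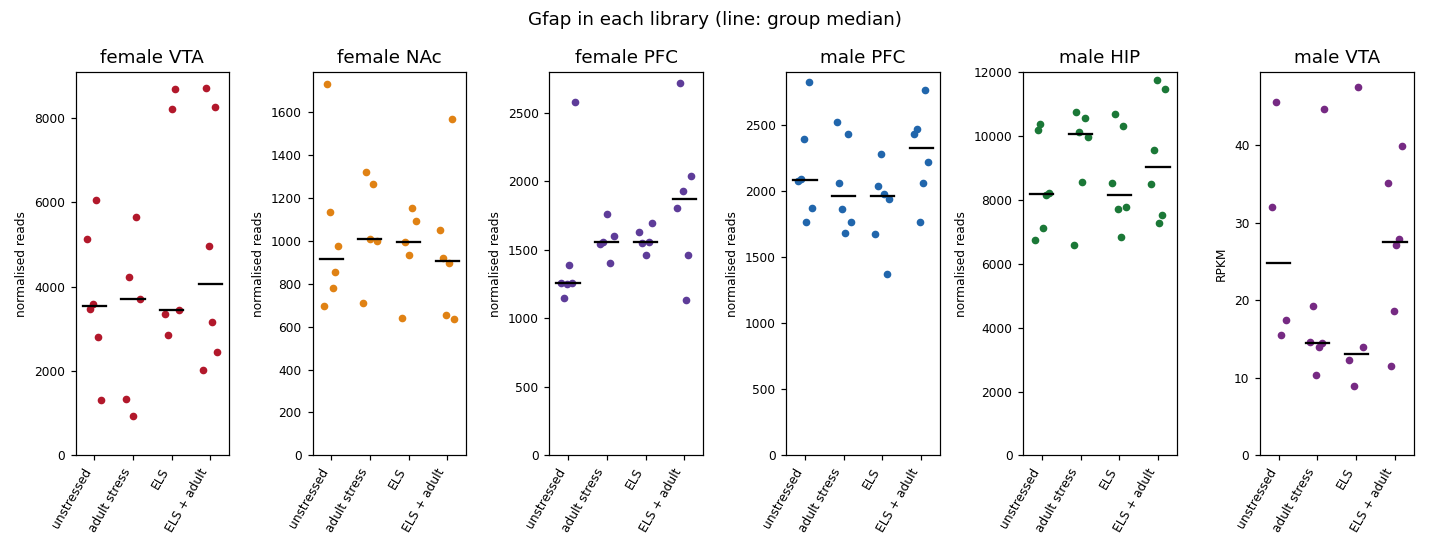
Gfap in each library by rearing and adult stress, in normalised reads for 5 regions and in RPKM for male VTA (line at the group median, axes start at 0). The groups of each region overlap, and the scatter is widest in VTA of both sexes.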

How the data were processed

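RNA libraries were grouped by title and characteristics. In 10 female NAc libraries the field for adult condition holds the sex instead, and their titles gave the group. Chromatin and input samples (16) were left out. For male NAc, and for PFC, HIP and female regions, the authors deposited a normalised read signal, in which each library's gene counts are divided by a common factor (HISAT, HTSeq and mm10, per the submitters' processing notes). All positive values (100%, tolerance 0.001) were whole multiples of what 1 read is worth, which gave depth and whole reads. For male VTA the authors deposited RPKM; per the submitters' processing notes, SAMtools 0.1.19, Bowtie2 2.2.0, TopHat2, MACS2 2.1.1 and HTSeq were used with mm10 and mm9, in roles not stated. Tables were normalised separately, and tests stayed within a table.

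The design allowed for raw counts. As values were normalised, limma 3.58.1 (R 4.3.3, trend, robust) was run on log2(value + 1), with 1 coefficient per group; the added 1 understates changes of low genes. Tests covered the 14000 genes highest on average, or the 14586 with mean RPKM of at least 0.5, with Benjamini-Hochberg adjustment. The scripts were tested on simulated data. Adjusted p-values are limma's unless edgeR is named. Alternatives were no filter, quantile normalisation, log2(RPKM + 0.1), a replicate block, all groups of a region, and leaving out each library or the 10 relabelled ones. A pair of alternatives was added after seeing the data: edgeR 4.0.16 on whole reads, and leaving out 14 doubted libraries (Ttr above 10000, males with Xist above 200, females with Ddx3y above 50 or Xist under 0.5 of their region's median). All 328 replicate pairs differed by more than sampling noise (chi-square per gene at least 2.80).

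All 10 genes are named between regions, and after stress those with an unadjusted p under 0.05. Of other lists, up to 3 genes of smallest p in each direction are named between regions, and up to 2 after stress. Gfap was described further after its values were seen. The members and lists were chosen with earlier results of these data known. All 127 list genes were matched, 3 by a RefSeq synonym. The value of a further regional marker is not reported here.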

Additional observations from a re-analysis of the deposited data

Results flagged for a closer look

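Of 276 gene and group combinations with 4 to 10 libraries, 26 (9.42%) held a library that stood apart from the rest of its group, 25 of them as the highest; chance alone sets about 1 in 20 groups apart, and genes of 1 library are not independent.

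Female PFC unstressed replicate 6 stood apart as the highest for 7 genes, with 125278 normalised reads for Slc1a2, 52203 for Glul, 7221 for Gja1, 2578 for Gfap, 1838 for Gjb6, 1817 for Aldh1l1 and 1365 for Sox9. Elsewhere in female PFC, ELS STVS replicate 5 stood apart for Slc1a3 (18087) and standard-reared STVS replicate 5 for Aqp4 (3620). In female VTA, standard-reared STVS replicate 4 stood apart for Gja1 (8144) and Sox9 (1009).

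Male VTA standard-reared defeated replicate 6 stood apart for Gfap (44.7 RPKM), Gjb6 (41.0 RPKM) and Slc1a3 (35.6 RPKM); the same library held the highest Slc17a7 of male VTA, 62.0 RPKM, whose part in these values was not tested. ELS control replicate 3 stood apart for Gfap (47.6 RPKM) and Aldh1l1 (17.0 RPKM). Gjb6 in unstressed replicate 1 (42.4 RPKM) and Sox9 in unstressed replicate 4 (5.89 RPKM) stood apart as the highest, and Gjb6 in ELS control replicate 1 (27.9 RPKM) as the lowest.

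Aldh1l1 stood apart in male HIP ELS control replicate 2 (1836) and standard-reared defeated replicate 2 (1727), and in male PFC unstressed replicate 4 (1759). In male NAc, early-window control replicate 3 stood apart for Aldh1l1 (1898) and Glul (40445), late-window control replicate 3 for Gja1 (6040) and unstressed replicate 1 for Aqp4 (2362).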

How the results depend on the processing

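No member was called in a stress comparison under any of the 219 alternatives or 1181 fits without 1 library. Between regions, the count of members called stayed within 1.5 times in 31 of 33 alternatives and 77 of 78 fits without 1 library. The exceptions were 9 genes with all groups for female NAc against PFC, 2 with all groups for male against female PFC, and 1 there without female PFC unstressed replicate 6 (0 to 1 over the libraries). These counts are given without the share of all genes in the same fits. Values that changed sign, none of which passed, were, for female NAc against PFC, Slc1a2 (0.11) and Glul (0.0036) under quantile normalisation, S100b (-0.040) and Sox9 (2.5e-04) without the relabelled libraries, and Aldh1l1 (-0.12 to 0.0047) and Sox9 (-0.071 to 0.041) over the fits without 1 library, positive without PFC replicate 6. For male HIP against PFC they were Slc1a2 with all groups (0.029), Slc1a2 (0.10) and Glul (0.09) without doubted libraries, and Gjb6 over the fits without 1 library (-0.030 to 0.14), and for both stresses against neither in female NAc, Aqp4 without the relabelled libraries (0.074). The cause was not tested. With the sign kept, single regional differences lost the call in 5 and gained it in 11 of 282 alternatives, and in 15 and 4 of 684 fits without 1 library. After stress, the number of members at an unadjusted p under 0.05 moved by over 1.5 times in 28 of 219 alternatives and 132 of 1181 fits without 1 library.

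After each group's mean was taken out, same-numbered libraries were more alike than others in the stress sets examined. The median Pearson r was 0.17 against -0.04 in female VTA, 0.12 against -0.03 in female PFC and 0.02 against 0.0017 in male VTA. Same-numbered libraries did not deviate together in every pair of any set. The replicate numbers were therefore not taken to pair the samples, and the replicate block was run as an alternative. With the replicate block Slc1a3 in male HIP against PFC kept its log2 difference of 0.24 and no longer passed (adjusted p = 0.086), and the block called no member after stress. No paired analysis was possible for male NAc because its numbers follow accession order.

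Counting error is small for these genes, since the lowest value of any member in a library was 433 normalised reads (Gjb6 in female NAc). For the RPKM libraries depth is unknown.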

Other observations

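Across the 114 libraries of the table that holds PFC, HIP and the female regions, after each group's mean was taken out, the genes outside the set whose log2 level moved most like the mean of the 10 were Lcat (Pearson r = 0.86), Itih5 (0.79), Axl (0.78), Mlc1 (0.77), S1pr1 (0.77), Sfxn5 (0.76), Abcb1a (0.74) and Adhfe1 (0.74). The libraries share depth scaling and punch composition, and the values are a description. By list, the median r was 0.66 for 8 endothelial markers, 0.60 for 28 other astrocyte markers, 0.48 for 8 microglia markers, -0.19 for 10 neuron markers and -0.25 for 7 choroid plexus markers.

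The 10 genes did not follow one another equally. Aqp4 (0.78), Gja1 (0.77) and Slc1a3 (0.75) had the highest r with the mean of the other 9, and Sox9 (0.24) and S100b (0.16) the lowest. In the 22 female VTA libraries both S100b and Glul had an r of -0.52 with the other 9, and in the 22 female PFC libraries they had 0.61 and 0.90. Sox9 had 0.81 in female PFC and -0.11 in the 24 male HIP libraries.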
